A study of Mus musculus with 14 samples.

Results

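The Cyp2 family is the largest group of drug-, steroid- and fatty acid-metabolising cytochrome P450 genes of the mouse liver. Its members were taken here as the genes whose symbol is Cyp2 followed by subfamily letters and a number, without pseudogenes. The rule was met by 49 of the 45706 genes deposited, and 35 of them were analysed because they had at least 10 counts in 3 or more libraries, as had 15807 genes in all. By subfamily the analysed members were 4 of 4 Cyp2a, 2 of 5 Cyp2b, 13 of 15 Cyp2c, 7 of 8 Cyp2d and 3 of 8 Cyp2j genes, and the only Cyp2e, Cyp2f, Cyp2g, Cyp2r, Cyp2s and Cyp2u gene. Cyp2ab1, Cyp2b13, Cyp2b19, Cyp2b23, Cyp2c65, Cyp2c66, Cyp2d34, Cyp2j7, Cyp2j8, Cyp2j11, Cyp2j12, Cyp2j13, Cyp2t4 and Cyp2w1 had too few counts. Of the 35 members 9 had at least 10 counts in fewer than 14 libraries, so these low members could pass the count minimum through the group in which they were high.

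RNA of whole liver was sequenced in 14 libraries from male C57BL6/J mice that were 8 weeks old at the start and carried no stated mutation. The chow group (CD in the titles, 4 libraries) received LabDiet chow, and the MASH group (3 libraries, numbered 2, 3 and 4) a Research Diets formula for 16 weeks. MASH stands for metabolic dysfunction-associated steatohepatitis, in which a fat-laden liver is inflamed and becomes fibrotic. Treatment followed for 6 more weeks on that diet. The MASH OA group (4 libraries) received C18:1. The MASH OAL group (3 libraries, numbered 1, 2 and 4) received C18:1-Leucine, the same fatty acid coupled to the amino acid leucine. The labels give 16 weeks of diet for every group, chow included. They give the 6 weeks of treatment for the MASH group too, but no treatment time for chow. Whether chow mice were kept as long is therefore not stated. The protocol also names a vehicle, but no title assigns it to the MASH group, and no label states a dose. The labels do not say that each library came from a separate mouse, so p-values measure the spread between these libraries, which may be partly technical.

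Cytochromes P450 are membrane-bound heme enzymes of the endoplasmic reticulum that insert an oxygen atom into their substrate with electrons passed on by the reductase Por and by cytochrome b5. In mouse liver the Cyp2 genes lie in clusters of near-identical copies. The nuclear receptor CAR (Nr1i3) switches on Cyp2b10 and several Cyp2c genes, HNF4A maintains many members, and growth hormone sets the male or female pattern of others. Many members are strongest in the hepatocytes around the central vein, whereas Cyp2f2 marks those around the portal vein.

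Total counts ran from 33821874 to 51107248 a library, and Cyp2 genes took up 1.412% to 1.705% of the counts of chow libraries, 1.001% to 1.112% in MASH, 0.822% to 1.038% in MASH OA and 1.291% to 1.448% in MASH OAL. Groups follow the titles, which 2 treatment tags contradict: MASH OA replicate 1 was tagged with the diet alone and MASH OAL replicate 1 as C18:1. The summed level of 7 hepatocyte markers was 83157 to 105442 CPM (counts scaled to library size) in chow, 55391 to 62712 in MASH, 44659 to 54487 in MASH OA and 61147 to 84394 in MASH OAL, so the defining transcripts of liver were abundant in every library. Summed macrophage markers (8 genes) moved the opposite way, at 210.0 to 339, 592 to 667, 633 to 953 and 362 to 453 CPM in the same order. Stellate cell markers (7 genes) stood at 212 to 310, 479 to 839, 473 to 1152 and 465 to 669 CPM, and bile duct markers (7 genes) at 33.1 to 47.8, 75.8 to 366, 122 to 428 and 58.4 to 207 CPM. Red blood cell markers (4 genes) stood at 266 to 402, 258 to 287, 159 to 411 and 355 to 674 CPM. Their part in the Cyp2 differences was not tested, and in whole tissue fewer hepatocytes and less RNA per hepatocyte cannot be told apart. Pancreatic acinar transcripts came to 149 CPM in chow replicate 2 and 563.6 CPM in MASH OAL replicate 2, against at most 7.55 CPM elsewhere. Airway club cell markers, which mark the other tissue known for Cyp2f2, were at 0 in all libraries.

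The sequences of the Cyp2c genes show how close the copies are and which counts can be told apart. The first 90 coding bases of 4 epoxygenase genes of the cluster on chromosome 19, of which Cyp2c37, Cyp2c54 and Cyp2c50 are neighbours (GENCODE M21 transcripts, GRCm38, 5′ to 3′) are printed with capitals at the bases that differ from Cyp2c50. Cyp2c37 differs from Cyp2c50 at 2 of these bases, Cyp2c54 at 6 and Cyp2c29 at 16.
Cyp2c50: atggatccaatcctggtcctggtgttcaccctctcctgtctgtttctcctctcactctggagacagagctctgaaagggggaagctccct
Cyp2c37: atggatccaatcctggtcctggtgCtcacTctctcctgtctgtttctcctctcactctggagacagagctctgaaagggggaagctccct
Cyp2c54: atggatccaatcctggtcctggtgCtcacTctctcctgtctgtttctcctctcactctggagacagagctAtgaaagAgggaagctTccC
Cyp2c29: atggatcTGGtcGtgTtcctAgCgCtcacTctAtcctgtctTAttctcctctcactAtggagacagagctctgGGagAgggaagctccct
Over the whole coding sequence Cyp2c37 and Cyp2c50 are 96.1% identical, Cyp2c50 and Cyp2c54 95.2%, Cyp2c67 and Cyp2c69 97.7%, Cyp2a4 and Cyp2a5 98.4%, and Cyp2a12 and Cyp2a22 97.0%. Of all 50-base windows of the transcript, 72.1% in Cyp2c40, 54.8% in Cyp2c69 and 52.8% in Cyp2c67 also occur in another gene. That share is 30.7% in Cyp2c50, 30.1% in Cyp2c37, 25.7% in Cyp2c54, 40.5% in Cyp2d10 and 29.0% in Cyp2d9, and 0.0% in Cyp2c23, Cyp2c70, Cyp2f2, Cyp2j9, Cyp2r1 and Cyp2s1. Values of genes with a high share are uncertain, because reads that fit several copies had to be divided among them.

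Promoters of 29 of the 35 members were at hand from RefSeq (GRCm38.p6), and the last 120 bases before the transcription start are shown for members whose levels are described below. Capitals mark matches, on either strand, to the HNF4A motif CAAAGNNCA and to the TATA box TATAAA. Cyp2a12 (chr7:27028970-27029089, plus strand) and Cyp2a22 (chr7:26939387-26939506, minus strand) are shown because these near-identical copies differed in the diet comparison. Cyp2c50 (chr19:40089559-40089678, plus), Cyp2d9 (chr15:82452257-82452376, plus) and Cyp2e1 (chr7:140763699-140763818, plus) represent the 3 subfamilies with the highest summed level.
Cyp2a12: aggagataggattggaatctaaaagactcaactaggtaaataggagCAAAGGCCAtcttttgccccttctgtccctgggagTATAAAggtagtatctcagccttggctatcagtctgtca
Cyp2a22: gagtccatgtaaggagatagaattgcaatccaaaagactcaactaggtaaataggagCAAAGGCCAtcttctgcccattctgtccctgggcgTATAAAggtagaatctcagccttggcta
Cyp2c50: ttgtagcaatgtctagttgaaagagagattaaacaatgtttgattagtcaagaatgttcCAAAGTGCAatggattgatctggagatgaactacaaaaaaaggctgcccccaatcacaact
Cyp2d9: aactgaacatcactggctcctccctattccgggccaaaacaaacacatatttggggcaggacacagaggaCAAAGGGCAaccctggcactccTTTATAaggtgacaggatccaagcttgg
Cyp2e1: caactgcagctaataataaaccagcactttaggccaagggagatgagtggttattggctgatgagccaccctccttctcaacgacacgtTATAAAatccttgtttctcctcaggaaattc
In the 250 bases before the start, CAAAGNNCA occurred in 14 of 29 member promoters (48.3%) and in 5.47% of all 27025 promoters, and TATAAA in 16 (55.2%) and 12.97%. The C/EBP motif TTGCNNAA occurred in 8 (27.6%, against 9.55% of all). The STAT5 motif TTCNNNGAA (7.18% of all) and the DR4 repeat bound by CAR and PXR (0.111% of all) were found in 0 member promoters. The DR4 letters matched only 30 of all 27025 promoters, so 0 among 29 cannot tell whether members lack such sites. Bases further upstream were not searched. Both strands were searched, no matches overlapped in the promoters printed, copies of a cluster share their promoters by descent, and a match is a description of letters, not of binding.

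Cyp2e1, which oxidises ethanol, paracetamol and other small molecules, was the most abundant member in every group. Per length of the coding transcript it stood at a mean of 3985 FPKM, the CPM level per kilobase of transcript, in chow, followed by Cyp2d9 at 1062, Cyp2d10 at 574 and Cyp2f2 at 556 FPKM. These ranks carry no test. Cyp2c29 ranked 5 by the coding transcript and 9 by the length of all exons. With C18:1 Cyp2c37 ranked 15 and Cyp2c54 18 by the coding transcript, against 10 and 12 in chow. At the other end, Cyp2d12, Cyp2a4, Cyp2s1, Cyp2d11, Cyp2b9 and Cyp2g1 were under 0.5 FPKM in chow.

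The sum over all members, a value with no test, was lower with the diet and higher with C18:1-Leucine than with C18:1. It was 16202, 16869, 19366 and 18149 CPM in chow and 10550, 10821 and 8899 in MASH. It was 6778, 9973, 9241 and 7576 CPM in MASH OA and 14157, 15035 and 13107 in MASH OAL. Every MASH OAL library lay above every MASH and MASH OA library and below every chow library, whereas MASH and MASH OA overlapped. The separation from chow depended on the scaling. As a share of all counts, MASH OAL replicate 2 (1.448%) lay above chow replicate 1 (1.412%). Cyp2e1 alone made up 41.4% of the summed level in chow and 49.7% in MASH OAL, and the Cyp2c genes 19.98% in chow, 13.5% in MASH, 10.6% in MASH OA and 13.7% in MASH OAL.

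**Figure D1:**
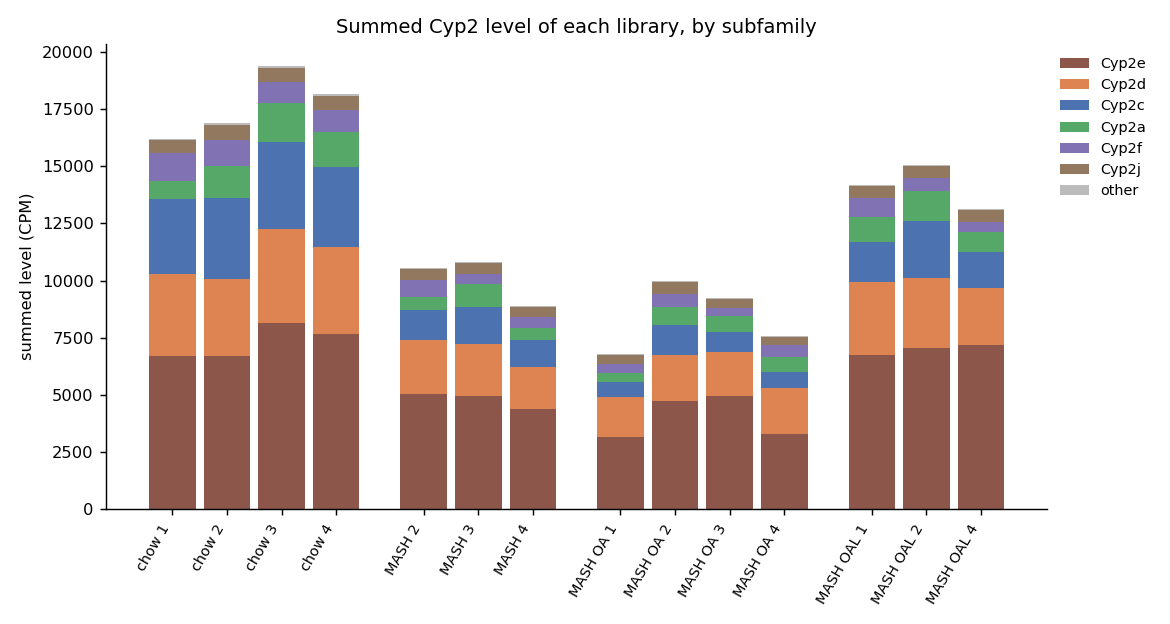
Stacked bars give the summed level of all Cyp2 genes in each of the 14 libraries in CPM, split by subfamily, with the axis starting at 0. The chow libraries reach 16202 to 19366 CPM, the MASH OAL libraries 13107 to 15035 and the other libraries 6778 to 10821. The Cyp2c block makes up 19.98% of the chow bars and 10.6% of the MASH OA bars.

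The first comparison asks how the family differed on the MASH diet. In MASH against chow 19 members were lower, among them members of the Cyp2a, Cyp2c, Cyp2d, Cyp2e, Cyp2f, Cyp2g, Cyp2j and Cyp2r subfamilies, and 2 were higher, Cyp2a22 and Cyp2d12. Of all genes tested, 15% were lower and 20.2% higher in this comparison (edgeR, adjusted p under 0.05), against 54.3% and 5.71% of the members. Among the 26 members with at least 10 counts in every library 15 were lower and 1 higher. The median log2 fold change of the 35 members was −0.67, beside 0.01 over all genes tested. When levels were scaled by library totals alone, which moved the median of all genes to 0.28, 13 members were lower and 5 higher (Cyp2a22, Cyp2a4, Cyp2c38, Cyp2d12 and Cyp2j6), the members' median was −0.40, and Cyp2c39, Cyp2d26 and Cyp2s1 changed sign. Of the 21 calls 13 held without any 1 library, and without MASH replicate 4 the number of lower members was 13.

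The comparison of the treated groups asks whether coupling leucine to the fatty acid changed the response, at the same 6 weeks of treatment and with doses not given. Between MASH OAL and MASH OA 13 members were higher and 0 lower (37.1% of the members higher), at a median log2 fold change of 0.56 (−0.02 over all genes), while 7.24% of all genes were higher and 8.83% lower. Among the 26 members with at least 10 counts in every library 12 were higher and 0 lower. By unadjusted p under 0.05 20 members were higher and 1, Cyp2b9, was lower, while 31.8% of all genes passed in either direction. DESeq2 called 16 members and 3335 of the 15807 genes, and limma voom 20 members and 4433 genes, with all these members higher. Under library totals, which moved the median of all genes to −0.24, 8 members were higher and 0 lower. Of the 13 members 12 were among the 19 that were lower in MASH against chow, which is 92.3% of the former and 63.2% of the latter list, and the exception by edgeR was Cyp2c70. The 2 comparisons share no library. The same overlap over all genes tested is not given here, so these shares do not show a trait particular to the family. Without MASH OA replicate 1, MASH OA replicate 4 or MASH OAL replicate 2 the number of higher members was 7, 8 and 6, and 6 calls held without any 1 library. Without both libraries whose tag and title disagree 6 members were called (Cyp2c23, Cyp2c50, Cyp2c54, Cyp2c67, Cyp2c68 and Cyp2e1). With the groups taken from the tags 0 of the 13 were called, at adjusted p of 0.172 to 0.730 and log2 fold changes of 0.26 to 1.09. Without the libraries that held pancreatic transcripts (chow replicate 2 and MASH OAL replicate 2), 5 were called.

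**Figure D2:**
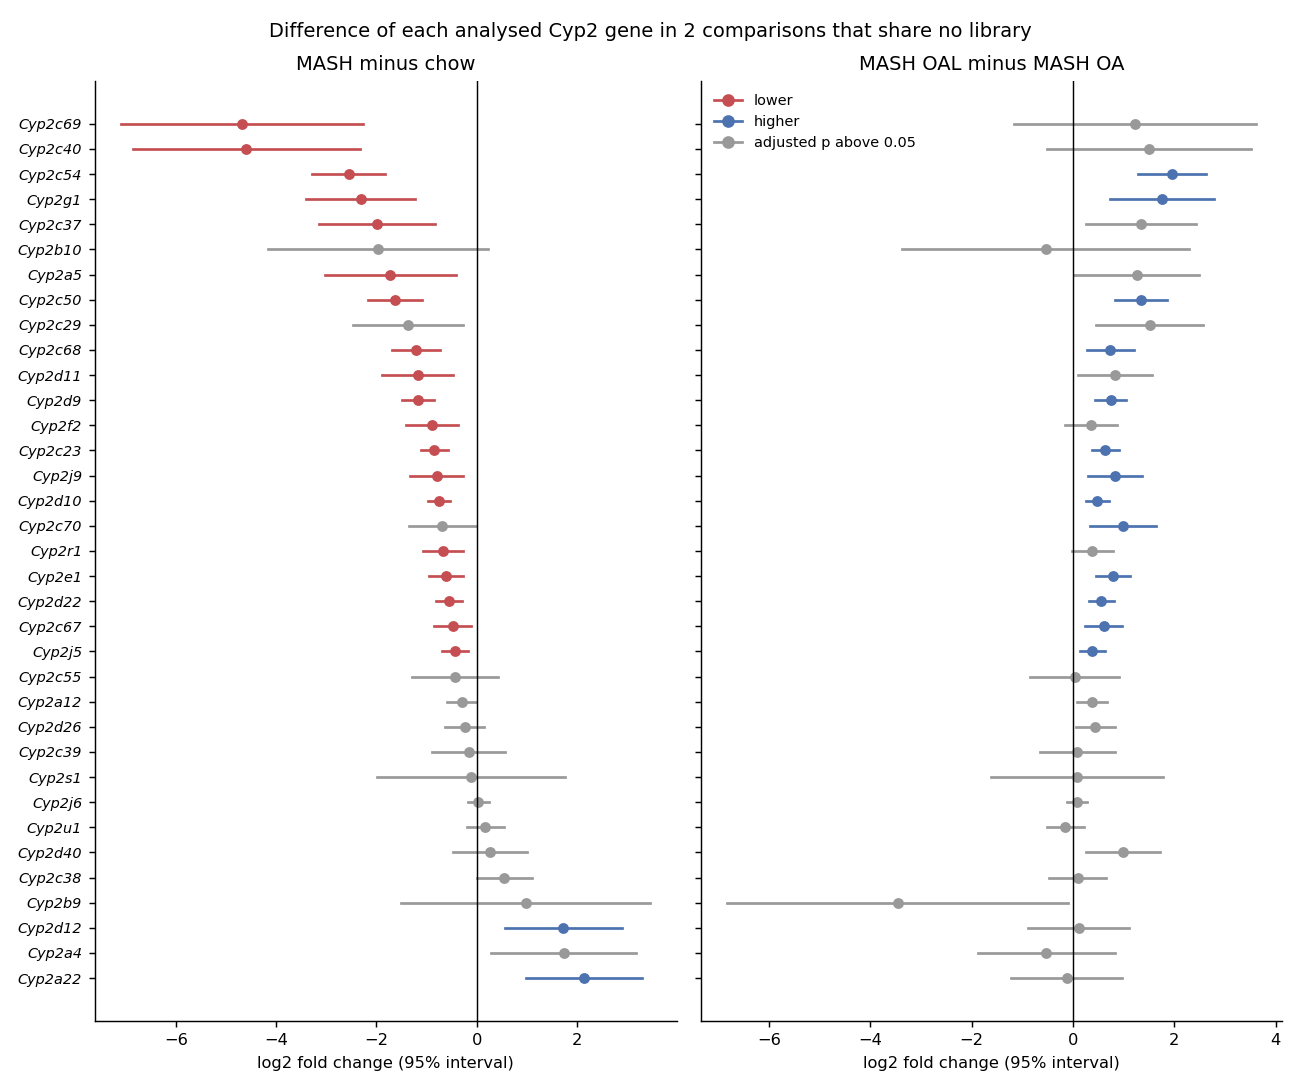
Points give the fitted log2 fold change of each of the 35 analysed genes and lines its 95% interval, for MASH minus chow on the left and MASH OAL minus MASH OA on the right, in the same order of genes. Of the genes on the left 19 are lower and 2 higher, and on the right 13 are higher and 0 lower.

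The Cyp2c genes, whose enzymes include the epoxygenases of arachidonic and linoleic acid, held 8 of the 19 lower members, and 5 of these were higher with C18:1-Leucine than with C18:1. Cyp2c54 stood at 309, 352, 467 and 441 CPM in chow and at 65.0, 71.3 and 64.4 in MASH. In MASH OA it stood at 29.4, 67.5, 42.6 and 21.7 CPM, and in MASH OAL at 159, 194 and 115. All MASH OAL libraries lay between the chow libraries and the others, with no overlap. The log2 fold change was −2.55 ± 0.34 (SE) in MASH against chow (edgeR, adjusted p = 0.000143) and 1.95 ± 0.31 in MASH OAL against MASH OA (adjusted p = 0.00355), and both calls held without any 1 library. Its neighbour Cyp2c50 stood at 740, 766, 982 and 902 CPM in chow and at 266, 293 and 267 in MASH. It stood at 132, 273, 187 and 124 CPM in MASH OA and at 475, 545 and 340 in MASH OAL, again with no overlap between chow, MASH OAL and the other libraries. Cyp2c50 fell by 1.62 ± 0.25 on the log2 scale with the diet (edgeR, adjusted p = 0.000415) and was higher by 1.34 ± 0.24 with C18:1-Leucine than with C18:1 (adjusted p = 0.00511).

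Cyp2c37, the copy closest to Cyp2c50, varied more between libraries. It stood at 485, 502, 617 and 521 CPM in chow and at 163, 156 and 83.8 in MASH. It stood at 33.4, 160, 83.1 and 39.1 CPM in MASH OA and at 226, 279 and 94.7 in MASH OAL, where replicate 4 fell among the MASH OA values. It was lower in MASH (log2 fold change −1.98 ± 0.53, edgeR, adjusted p = 0.0127), a call that ended without MASH replicate 4 (adjusted p = 0.0590). Between the treated groups it gave 1.34 (95% interval 0.26 to 2.42, adjusted p = 0.0862). The sum of these 3 genes does not depend on how reads were divided among them. It was 1534 to 2066 CPM in chow, 415 to 520 in MASH, 184 to 500 in MASH OA and 550 to 1018 in MASH OAL, with no overlap between chow, MASH OAL and the rest.

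Cyp2c29, an epoxygenase that phenobarbital induces, shares only 2.08% of its windows with other genes, the foremost of which is a pseudogene. It stood at 761, 980, 902 and 828 CPM in chow, at 317, 530 and 164 in MASH, at 90.6, 288, 144 and 53.7 in MASH OA and at 323, 570 and 341 in MASH OAL. No chow library overlapped the others, and no MASH OAL library overlapped MASH OA. It nevertheless missed the threshold in both comparisons (−1.36 ± 0.51, edgeR, adjusted p = 0.0536, and 1.51 ± 0.49, adjusted p = 0.0532), and DESeq2 and limma voom called it in both. Cyp2c23, an arachidonate epoxygenase shares no window with another gene. It stood at 238, 283, 213 and 240 CPM in chow and at 128, 130 and 147 in MASH. It stood at 112, 139, 99.7 and 122 CPM in MASH OA and at 166, 207 and 179 in MASH OAL. The MASH OAL values lay above all MASH and MASH OA values and below all chow values. The log2 fold changes were −0.85 ± 0.12 with the diet (edgeR, adjusted p = 0.000270) and 0.64 ± 0.12 between the treated groups (adjusted p = 0.00665), and both calls held without any 1 library.

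Cyp2c68, Cyp2c67, Cyp2c40 and Cyp2c69 lie side by side and share 43.3% to 72.1% of their windows. Cyp2c68 fell from 157 to 173 CPM in chow to 64.2 to 78.0 in MASH (−1.21 ± 0.23, edgeR, adjusted p = 0.00148). It was higher in MASH OAL, at 62.5, 113 and 88.4 CPM, than in MASH OA, at 34.9, 68.1, 64.2 and 43.6 (0.74 ± 0.22, adjusted p = 0.0363). These treated groups overlapped, and the call ended without MASH OA replicate 1 or 4 or MASH OAL replicate 2 or 4 (adjusted p up to 0.185). Cyp2c67 changed less, by −0.48 ± 0.17 with the diet (adjusted p = 0.0469), a call that ended without each of the 7 libraries in turn. It gave 0.61 ± 0.17 between the treated groups (adjusted p = 0.0318), which ended without MASH OA replicate 1 or 3 or MASH OAL replicate 2 or 4 (adjusted p up to 0.168). Cyp2c40 and Cyp2c69 had the largest fitted falls in MASH, −4.60 ± 1.04 (edgeR, adjusted p = 0.00526) and −4.68 ± 1.11 (adjusted p = 0.00653), at low levels. Cyp2c40 had 710, 202, 148 and 159 counts in chow and 14, 4 and 33 in MASH, and Cyp2c69 had 320, 67, 37 and 43 counts in chow and 5, 5 and 8 in MASH. Chow replicate 1 was the highest for both, and without any 1 library the log2 fold change stayed between −5.46 and −3.74 for Cyp2c40 and between −4.99 and −3.42 for Cyp2c69. The sum of the 4 genes was 377 to 448 CPM in chow, 233 to 243 in MASH, 166 to 227 in MASH OA and 217 to 395 in MASH OAL.

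Cyp2c70, which makes the muricholic acids that distinguish mouse from human bile, was the member that edgeR called between the treated groups and not for the diet, where DESeq2 called it. It stood at 243, 224, 154 and 175 CPM in chow and at 81.9, 135 and 154 in MASH. It stood at 63.7, 121, 92.5 and 78.3 CPM in MASH OA and at 178, 248 and 101 in MASH OAL, where replicate 4 fell within the MASH OA range. The log2 fold change of 0.98 ± 0.30 (edgeR, adjusted p = 0.0434) lost its call without MASH OA replicate 1, 3 or 4 or MASH OAL replicate 1 or 2 (adjusted p up to 0.223). The diet comparison gave −0.69 ± 0.31 (adjusted p = 0.0988). Cyp2c38, Cyp2c39 and Cyp2c55, copies at the other side of the cluster, were called by edgeR in no comparison, and Cyp2c38 was the only Cyp2c gene with a fold change above 0 in MASH (0.56, 95% interval −0.0018 to 1.12, adjusted p = 0.109; 26.1, 37.9, 34.7 and 29.3 CPM in chow, 49.3, 50.2 and 41.7 in MASH).

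**Figure D3:**
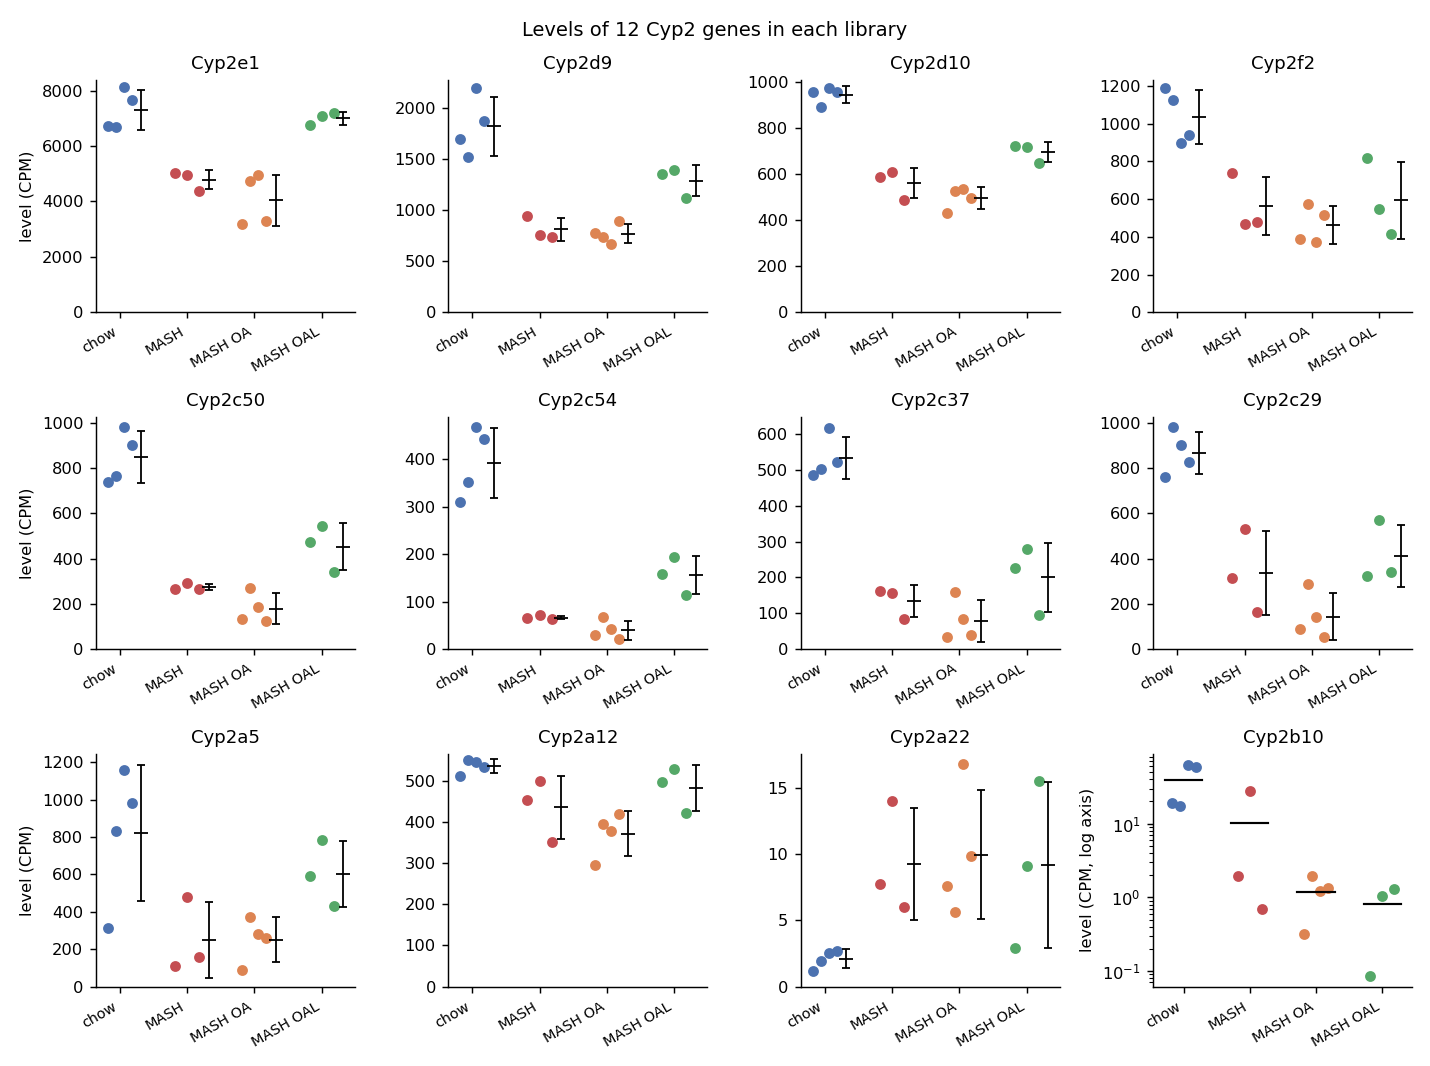
Each dot is the level of a gene in 1 library in CPM, with the mean and SD of the group beside the dots, from 0 upwards, except for Cyp2b10, which is drawn on a log axis with the group mean as a line. Cyp2c54 at 115 to 194 CPM in MASH OAL lies between chow (309 to 467) and the MASH OA libraries (21.7 to 67.5), whereas Cyp2b10 stays at 1.32 CPM or less in MASH OAL.

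The Cyp2d genes, which oxidise many basic drugs, held 4 lower members and 1 higher one. Cyp2d9, a testosterone hydroxylase of male mice, stood at 1691, 1519, 2196 and 1865 CPM in chow and at 936, 756 and 738 in MASH. It stood at 779, 731, 669 and 896 CPM in MASH OA and at 1350, 1392 and 1119 in MASH OAL. All MASH OAL libraries lay below chow and above the other libraries. It fell by 1.17 ± 0.15 on the log2 scale with the diet (edgeR, adjusted p = 0.000108) and was higher by 0.74 ± 0.14 with C18:1-Leucine than with C18:1 (adjusted p = 0.00741). Cyp2d10 stood at 957, 892, 975 and 958 CPM in chow, 589, 611 and 487 in MASH, 431, 529, 533 and 497 in MASH OA and 720, 720 and 647 in MASH OAL. The groups separated in the same way as for Cyp2d9, at −0.75 ± 0.10 (edgeR, adjusted p = 0.000176) and 0.48 ± 0.10 (adjusted p = 0.00947). Cyp2d22, often set beside the human drug-metabolising CYP2D6, stood at 169, 192, 226 and 231 CPM in chow, 135, 150 and 134 in MASH, 118, 138, 144 and 120 in MASH OA and 195, 210 and 169 in MASH OAL, which overlapped chow alone. It fell by 0.55 ± 0.12 on the log2 scale in MASH (edgeR, adjusted p = 0.00360) and was higher by 0.56 ± 0.12 with C18:1-Leucine (adjusted p = 0.00939), where the call ended without MASH OAL replicate 2 (adjusted p = 0.0525). The calls of Cyp2d9, Cyp2d10 and Cyp2d22 between the treated groups ended under both ways of treating the disagreeing labels. Those of Cyp2d10 and Cyp2d22 also ended without the libraries holding pancreatic transcripts.

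Cyp2d40 and Cyp2d26, at the far end of the cluster on chromosome 15, were called by edgeR in no comparison. Cyp2d40 stood at 60.3, 49.7, 31.5 and 34.5 CPM in chow, 62.7, 59.8 and 36.6 in MASH, 33.6, 58.5, 45.1 and 32.8 in MASH OA and 132, 69.8 and 50.8 in MASH OAL. Its highest library was MASH OAL replicate 1, and the treated groups overlapped. Between them it gave 0.99 ± 0.34 (edgeR, adjusted p = 0.0636), and against chow MASH OAL gave 0.94 ± 0.34 (adjusted p = 0.0799). DESeq2 and limma voom called Cyp2d40 as higher in both, and limma voom called Cyp2d26 between the treated groups. Cyp2d26 stood at 691 to 737 CPM in chow and 449 to 716 in MASH (−0.24, 95% interval −0.62 to 0.15, edgeR, adjusted p = 0.316). Cyp2d11 and Cyp2d12 were barely detected. Cyp2d11 had 16 to 19 counts in each chow library and 9 to 12 in MASH (−1.18 ± 0.33, adjusted p = 0.0144). It shares 37.2% of its windows, most with Cyp2d10, which had 30112 to 38752 counts in chow and also fell. Cyp2d12 had 7, 2, 3 and 2 counts in chow and 5, 15 and 27 in MASH (1.73 ± 0.54, adjusted p = 0.0250), overlapping groups whose call ended without chow replicate 2, 3 or 4 or MASH replicate 3 or 4 (adjusted p up to 0.163).

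Cyp2e1 had the highest level and 1 of the smaller falls. It stood at 6719, 6685, 8142 and 7675 CPM in chow and at 5037, 4941 and 4393 in MASH. It stood at 3172, 4744, 4940 and 3307 CPM in MASH OA and at 6750, 7067 and 7192 in MASH OAL. The MASH OAL libraries lay within the chow range and above all MASH and MASH OA libraries. The log2 fold change was −0.61 ± 0.16 in MASH against chow (edgeR, adjusted p = 0.0106), where the call ended without MASH replicate 4 (0.0505) and under scaling by library totals. It was 0.79 ± 0.16 between the treated groups (adjusted p = 0.00778), and that call held without any 1 library. In MASH OAL against chow it was −0.06 (95% interval −0.40 to 0.28, adjusted p = 0.819).

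Cyp2f2, the periportal member, fell with the diet and was not called between the treated groups. It stood at 1191, 1123, 896 and 937 CPM in chow, 738, 469 and 476 in MASH, 389, 573, 371 and 516 in MASH OA and 817, 545 and 415 in MASH OAL. Chow lay above all other libraries, and the other 3 groups overlapped. The diet gave −0.89 ± 0.24 (edgeR, adjusted p = 0.0127), ending without MASH replicate 3 or 4 (up to 0.0595), and the treated groups 0.36 (95% interval −0.15 to 0.86, adjusted p = 0.322).

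The Cyp2a genes went different ways. Cyp2a5, the coumarin and nicotine hydroxylase, stood at 315, 834, 1160 and 982 CPM in chow and at 110, 480 and 156 in MASH. It stood at 89.0, 374, 279 and 261 CPM in MASH OA and at 590, 782 and 432 in MASH OAL. The diet groups overlapped, since chow replicate 1 was below MASH replicate 3, and the call (−1.73 ± 0.60, edgeR, adjusted p = 0.0421) ended without chow replicate 2, 3 or 4 or MASH replicate 2 or 4 (adjusted p up to 0.148). The treated groups did not overlap but were not called by edgeR (1.26, 95% interval 0.03 to 2.50, adjusted p = 0.149). Cyp2a12, which rehydroxylates bile acids, and Cyp2a22, its 97.0% identical copy some distance along chromosome 7, carry the same HNF4A and TATA letters in the promoters printed above. Cyp2a12 stood at 514 to 552 CPM in chow and at 454, 502 and 353 in MASH (−0.30, 95% interval −0.59 to −0.0036, edgeR, adjusted p = 0.105). Cyp2a22 stood at 1.15, 1.93, 2.57 and 2.71 CPM in chow and at 7.74, 14 and 5.97 in MASH. In MASH OA it stood at 7.59, 5.60, 16.8 and 9.85 CPM and in MASH OAL at 2.90, 9.13 and 15.5. All 10 libraries on the MASH diet lay above all chow libraries. Cyp2a22 rose by 2.14 ± 0.53 in MASH (adjusted p = 0.00855), and the call held without any 1 library. Between the treated groups it gave −0.12 (95% interval −1.22 to 0.97, adjusted p = 0.891). Cyp2a4, a steroid hydroxylase, had at most 9 counts in any chow library and 15 to 29 in MASH (1.74 ± 0.67, edgeR, adjusted p = 0.0582), and DESeq2 and limma voom called it as higher.

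Cyp2b10, the gene that CAR activators switch on most, was far below chow in both treated groups. It stood at 19.0, 17.6, 63.4 and 58.5 CPM in chow and at 1.97, 27.9 and 0.70 in MASH. It stood at 0.32, 1.93, 1.203 and 1.33 CPM in MASH OA and at 0.09, 1.04 and 1.32 in MASH OAL. Among the treated libraries the highest value, 1.93 CPM, was below the lowest chow value, whereas MASH replicate 3 lay within the chow range. MASH replicates 2 and 4, at 1.97 and 0.70 CPM, were also far below chow. Against MASH, edgeR called neither MASH OA (adjusted p = 0.774) nor MASH OAL (adjusted p = 0.168), and DESeq2 called MASH OAL as lower. MASH OA was not tested against chow. In MASH OAL against chow the log2 fold change was −5.62 ± 1.29 (edgeR, adjusted p = 0.0157), ending without MASH OAL replicate 4 (adjusted p = 0.0543), under both ways of treating the disagreeing labels and without the libraries holding pancreatic transcripts. In MASH against chow it was −1.97 (95% interval −4.17 to 0.23, adjusted p = 0.147) and between the treated groups −0.54 (−3.36 to 2.29, adjusted p = 0.807). Cyp2b9, a member of female liver, had 3, 3 and 4 counts in MASH OAL and 57, 100 and 47 in MASH. It was called by edgeR in no comparison (MASH OAL against MASH −4.21 ± 1.59, adjusted p = 0.195), and in MASH OA it ranged from 0 counts in replicate 1 to 164 in replicate 3.

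Smaller subfamilies held 4 more lower members. Cyp2j5, an epoxygenase of liver and kidney, stood at 520, 594, 527 and 541 CPM in chow and at 425, 386 and 396 in MASH. It stood at 322, 436, 337 and 285 CPM in MASH OA and at 447, 454 and 452 in MASH OAL. Chow lay above all other libraries and MASH OAL above MASH OA. The differences were −0.44 ± 0.12 (edgeR, adjusted p = 0.0125) and 0.39 ± 0.12 (adjusted p = 0.0412), the second ending without any 1 of 6 of the 7 libraries (all but MASH OA replicate 2). Cyp2j9 gave −0.80 ± 0.25 (adjusted p = 0.0243) and 0.82 ± 0.25 (adjusted p = 0.0390) with overlapping groups. Its calls ended without chow replicate 2 or 3 or MASH replicate 3 or 4 in the first case and without MASH OA replicate 1, 3 or 4 or MASH OAL replicate 1 or 2 in the second (adjusted p up to 0.0957 and 0.171). Cyp2j6 was not called, at 55.7 to 69.5 CPM in chow and 59.9 to 71.5 in MASH, with a log2 fold change of 0.04 (95% interval −0.17 to 0.24, adjusted p = 0.796).

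Cyp2r1, the hydroxylase that begins the activation of vitamin D, stood at 8.26, 12.6, 9.49 and 9.56 CPM in chow and at 4.62, 7.36 and 6.81 in MASH. It fell by 0.67 ± 0.19 on the log2 scale (edgeR, adjusted p = 0.0145) with no overlap, ending without MASH replicate 2 (0.0625). Cyp2g1, best known from the olfactory epithelium, had 9, 31, 37 and 40 counts in chow and 5, 6 and 12 in MASH. It had 4, 9, 13 and 9 counts in MASH OA and 33, 21 and 31 in MASH OAL. In CPM neither pair of groups overlapped. It gave −2.32 ± 0.51 (edgeR, adjusted p = 0.00371) and 1.77 ± 0.48 (adjusted p = 0.0253), the second ending without MASH OA replicate 1 or 4 or MASH OAL replicate 1 or 2 (adjusted p up to 0.0717). Cyp2u1 at 15.4 to 28.7 CPM over all libraries and Cyp2s1 at 0.057 to 1.06 CPM were called in no comparison.

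Each level was also divided by the summed hepatocyte markers of its library, as a value with no test. On that scale the median log2 difference of the 35 members was 0.01 in MASH against chow and −0.01 in MASH OAL against MASH OA, beside −0.67 and 0.56 on the CPM scale. The summed markers themselves had log2 ratios of means of −0.67 and 0.58, so the division moved every gene by a similar amount. The median of all genes was not computed on that scale. These medians therefore do not show whether the family still stood apart from other genes. Cyp2e1 (0.06), Cyp2d10 (−0.09), Cyp2r1 (0.01) and Cyp2c70 (−0.02) then lay near 0 in MASH against chow. Cyp2c54 (−1.87), Cyp2c37 (−1.34), Cyp2a5 (−1.02), Cyp2c50 (−0.95) and Cyp2d9 (−0.51) stayed below 0, and Cyp2a22 was at 2.83. Cyp2j5 (0.22), Cyp2c67 (0.18) and Cyp2d22 (0.13), all called lower on the CPM scale, lay above 0. Between the treated groups Cyp2c54 (1.40), Cyp2c29 (0.99), Cyp2c50 (0.78) and Cyp2c37 (0.77) stayed above 0, and Cyp2d22 (−0.01) and Cyp2d10 (−0.08) lay near 0. Cyp2j5, called higher on the CPM scale, was at −0.17. The hepatocyte markers are themselves genes that differed: Alb fell by 0.73 ± 0.15 with the diet (edgeR, adjusted p = 0.00247) and was higher by 0.67 ± 0.15 in MASH OAL than in MASH OA (adjusted p = 0.0105). Alb made up most of the marker sum, with means of 62519 of 93938.5 CPM in chow and 37648 of 59042 in MASH. In MASH OA these means were 29975 of 49227 CPM, and in MASH OAL 47708 of 73746.5.

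**Figure D4:**
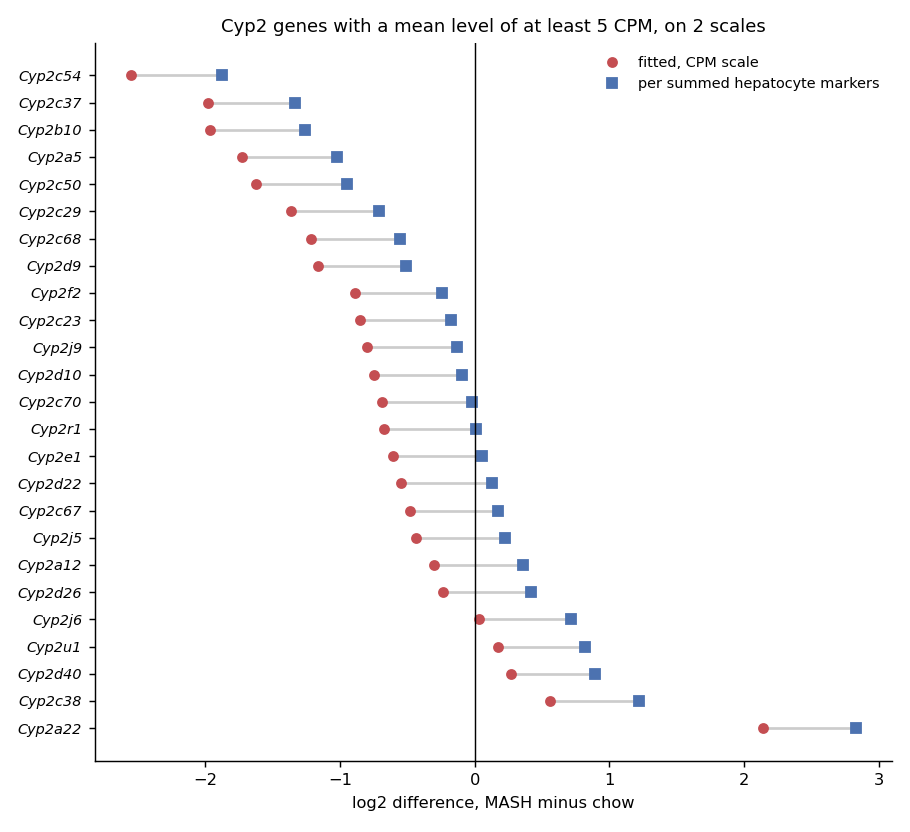
For the 25 genes with a mean level of at least 5 CPM, circles give the fitted log2 fold change of MASH against chow and squares the log2 difference after division by the summed hepatocyte markers of each library. The squares spread around 0 from −1.87 for Cyp2c54 to 2.83 for Cyp2a22, with Cyp2e1 at 0.06.

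C18:1 alone was compared with MASH. In MASH OA against MASH 0 members were called, as were 0.0% of all genes (edgeR). By unadjusted p under 0.05 5 members were lower (Cyp2b10, Cyp2c29, Cyp2c50, Cyp2c54 and Cyp2j9) and 0 higher, while 6.16% of all genes passed in either direction. DESeq2 called 0 members and 3 genes in all, and limma voom 0 members and 0 genes. The members' median log2 fold change was −0.26 (0.00 over all genes), and 27 of 35 were below 0. In 2 members (Cyp2c38 and Cyp2j9) every MASH OA library lay below every MASH library, against 2.65% of all genes, and in 0 members above, against 2.81%. The interval was −0.59 to 0.09 for Cyp2e1, −1.39 to −0.07 for Cyp2c54 and −0.39 to 0.24 for Cyp2d9 (95%).

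C18:1-Leucine was compared with MASH in the same way. For MASH OAL against MASH edgeR called 0 members and 0.0696% of all genes (0.00633% higher and 0.0633% lower). By unadjusted p under 0.05 9 members were higher and 2 lower (Cyp2b9 and Cyp2b10), while 17.9% of all genes passed. The median log2 fold change was 0.30 (−0.01 over all genes). DESeq2 called 8 members (7 higher, and Cyp2b10 lower) and 948 genes in all, and limma voom 4 members (Cyp2c23, Cyp2c54, Cyp2d22 and Cyp2d9, all higher) and 575 genes in all. In 9 members every MASH OAL library lay above every MASH library, against 10.2% of all genes, and in 1, Cyp2b9, below, against 12.0%. Cyp2d9 had the smallest p, at 0.67 ± 0.16 (edgeR, adjusted p = 0.0758), followed by Cyp2g1 at 1.98 ± 0.53 (0.101), Cyp2c54 at 1.22 ± 0.33 (0.105) and Cyp2d22 at 0.45 ± 0.13 (0.107). This comparison shares libraries with the ones before it.

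The last comparison sets MASH OAL beside chow. In MASH OAL against chow 10 members were lower (4.29% of all genes) and 2 higher (10% of all genes), with a median of −0.40 (0.01 over all genes). The lower members were Cyp2b10, Cyp2c23, Cyp2c50, Cyp2c54, Cyp2c68, Cyp2c69, Cyp2d10, Cyp2d9, Cyp2f2 and Cyp2r1, and the higher ones again Cyp2a22 and Cyp2d12. Among the 26 members with at least 10 counts in every library 8 were lower and 1 higher. Cyp2c54 gave −1.33 ± 0.32 (edgeR, adjusted p = 0.0170), Cyp2c50 −0.90 ± 0.24 (0.0283), Cyp2d10 −0.44 ± 0.10 (0.0147) and Cyp2d9 −0.50 ± 0.15 (0.0395), and Cyp2a22 2.13 ± 0.53 (0.0220). Each of the 12 calls was lost without at least 1 library, and without MASH OAL replicate 4 there were 0. Leaving out MASH OAL replicate 1 gave 4 lower members, chow replicate 4 5, and chow replicate 2, chow replicate 3 or MASH OAL replicate 2 6. With groups from the tags the 10 lower members became 0, without the libraries with disagreeing labels 4 and without those holding pancreatic transcripts 3. The 2 comparisons with chow share the chow libraries.

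The regulators and partners of the enzymes were read from lists that the family does not include. Over all genes tested, 15% were lower and 20.2% higher in MASH, and 7.24% were higher between the treated groups. Nr1i3, which encodes CAR, stood at 404, 579, 780 and 551 CPM in chow and at 331, 340 and 244 in MASH. It stood at 149, 232, 222 and 159 CPM in MASH OA and at 479, 511 and 451 in MASH OAL. The MASH OAL libraries lay within the chow range and above all MASH and MASH OA libraries. Nr1i3 fell by 0.92 ± 0.21 on the log2 scale in MASH (edgeR, adjusted p = 0.00525) and was higher by 1.34 ± 0.21 in MASH OAL than in MASH OA (adjusted p = 0.00330). Cyp2b10, its classical target, was at 1.32 CPM or less in the same MASH OAL libraries. Of the 12 xenobiotic receptors and partners 5 were lower and 1 (Nfe2l2) higher in MASH, and Nr1i3 alone was higher between the treated groups with 0 lower. Nr1i2, which encodes the related receptor PXR, gave −0.23 ± 0.16 (adjusted p = 0.273) and 0.31 ± 0.16 (adjusted p = 0.205).

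Of the 12 genes of redox partners and heme supply 4 were lower in MASH (Hmox2, Pgrmc1, Fech and Cyb5a) and 3 higher in MASH OAL against MASH OA (Cyb5a, Fech and Pgrmc1), with 0 in the other direction in each case. The shares over all genes were 15% lower with the diet and 7.24% higher between the treated groups. Cyb5a, the cytochrome b5 gene, gave −0.37 ± 0.12 (edgeR, adjusted p = 0.0272) and 0.62 ± 0.12 (adjusted p = 0.00625). Por, the reductase that all these enzymes need, stood at 413, 447, 739 and 756 CPM in chow, 344, 426 and 182 in MASH, 150, 441, 378 and 216 in MASH OA and 757, 695 and 525 in MASH OAL. Its MASH OAL libraries lay above those of MASH and MASH OA, but it missed the threshold (−0.89 ± 0.38, adjusted p = 0.0856, and 1.15 ± 0.37, adjusted p = 0.0520). Hnf4a, among 6 of 16 hepatocyte transcription factors that fell in MASH, gave −0.72 ± 0.17 (adjusted p = 0.00538) with the diet and 0.24 ± 0.17 (adjusted p = 0.349) between the treated groups, where 1 of the 16, Nr1h4, was higher and 0 lower.

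**Figure D5:**
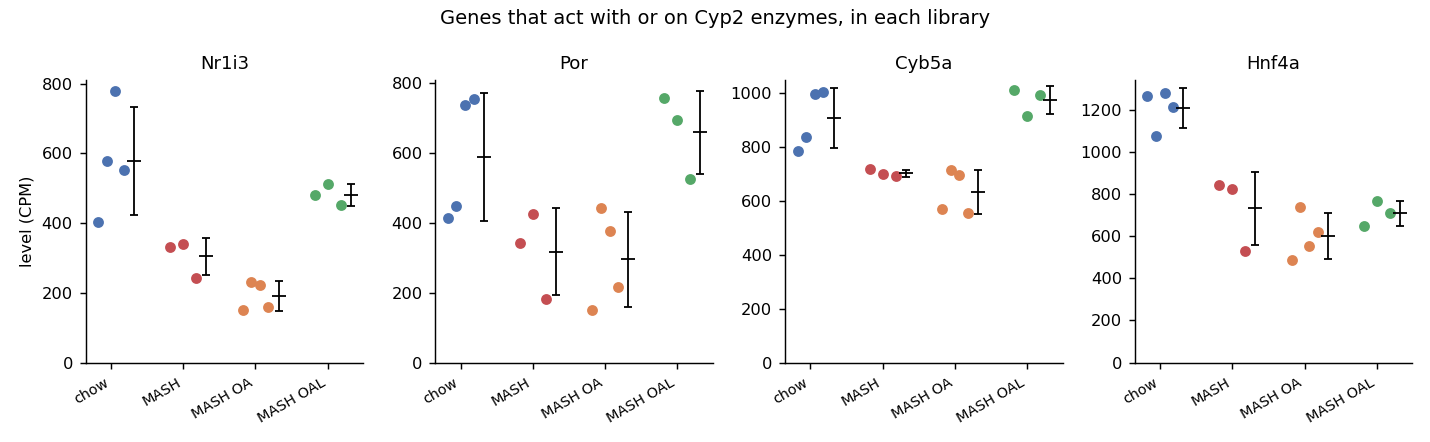
Dots give the level in each library in CPM of Nr1i3 (the receptor CAR), Por (the electron-donating reductase), Cyb5a (cytochrome b5) and Hnf4a (a hepatocyte transcription factor), with the mean and SD of each group beside them and axes from 0. Nr1i3 lies at 451 to 511 CPM in MASH OAL and at 149 to 232 in MASH OA, whereas Hnf4a overlaps between these groups.

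The P450 genes outside the family were counted in the same way. Of 22 hepatic P450 genes outside the family 13 were lower, 0 higher and 9 not called in MASH, at a median of −0.97 (0.01 over all genes, 15% of which were lower), and 5 were higher, 0 lower and 17 not called in MASH OAL against MASH OA, at a median of 0.48 (−0.02 over all genes, 7.24% of which were higher). Cyp1a2, which oxidises caffeine, gave −1.26 ± 0.30 (edgeR, adjusted p = 0.00603) and 1.24 ± 0.28 (adjusted p = 0.0138), whereas Cyp3a11, a PXR target, gave −0.92 ± 0.23 (adjusted p = 0.00806) and 0.18 ± 0.23 (adjusted p = 0.625).

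Genes that vary with sex or with position in the lobule were read in the same way. Over all genes tested, 15% were lower and 20.2% higher in MASH. Between the treated groups 7.24% of them were higher and 8.83% lower. Of 14 male-biased liver genes outside the family 9 were lower in MASH and 5 higher between the treated groups, with 0 in the other direction. Hsd3b5, a steroid dehydrogenase of male liver, gave −3.89 ± 0.92 (edgeR, adjusted p = 0.00674) and 3.46 ± 0.82 (adjusted p = 0.0167), and Serpina1e −4.17 ± 0.45 (adjusted p = 3.7e-05) and 1.61 ± 0.38 (adjusted p = 0.0144). Of 10 female-biased genes 3 were higher and 4 lower in MASH, and 2 were higher and 0 lower between the treated groups. Of 12 genes of the growth hormone axis 2 were higher (Stat5a and Jak2) and 2 lower (Igf1 and Cux2) in MASH, and 2 were higher (Ghr and Igf1) and 1 lower (Stat5a) between the treated groups. With the diet the counts of the growth hormone axis lay near the shares over all genes. The mediators Stat5b (−0.11 ± 0.11, adjusted p = 0.473) and Bcl6 (0.54 ± 0.61, adjusted p = 0.512) were not called with the diet. Of 16 pericentral genes outside the family 4 were higher (Slc13a3, Gstm3, Lect2 and Glul) and 1, Cyp1a2, lower in MASH, and of 16 periportal genes 1 was higher and 9 lower. Between the treated groups 3 pericentral genes and 1 periportal gene were higher and 0 lower.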

How the data were processed

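Whole-liver RNA of 14 mouse libraries was measured by RNA-seq. The values the authors deposited are expected counts per gene, which need not be whole. HTSeq, DESeq2 1.42.1 and the build GRCm38 are named in the submitters' processing notes, with no role or order. They were rounded to whole numbers. Genes with at least 10 counts in 3 or more libraries were fitted together (edgeR 4.0.16, quasi-likelihood test with robust dispersion and TMM scaling, R 4.3.3) with 1 term per title group over all 14 libraries, and p-values were Benjamini-Hochberg adjusted over all 15807 genes with a threshold of 0.05. CPM levels are counts scaled to the TMM-adjusted library size, and SEs are the log2 fold change over the root of the F statistic. Levels per length use GENCODE M21 gene models, which hold 45143 of 45706 gene identifiers and all 49 members. DESeq2 1.42.0 and limma 3.58.1 (voom) were alternatives, with another scaling, no filter, each library left out and the replicate number as a block. The fit was checked on simulated counts. Members and gene lists were chosen with earlier results of these data known, and the alternatives with library totals, without libraries holding pancreatic transcripts and per summed hepatocyte markers were chosen after seeing the data. Named were the members past the threshold in any comparison, the most abundant member of each subfamily, 8 regulators and P450 genes, and up to 4 genes of a list with the smallest p. Other members and genes were named after their values were seen, among them Cyp2c29. Replicates of a group differed by 24.8 to 166.4 times sampling noise (chi-square per gene), so none was a repeat deposit. Correlations of deviations between same-numbered libraries ran from −0.244 to 0.422. Differently numbered libraries were not compared, so these values cannot decide whether replicate numbers pair the libraries. Comparison tables of the authors were not used because their group letters have no key. Counts without molecular identifiers are not independent molecules, so depth limits cover counting error only.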

Additional observations from a re-analysis of the deposited data

Results flagged for a closer look

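In 70 groups of 4 libraries (35 genes in the chow and in the MASH OA group) the most distant library was set against Dixon's critical value at 95%, which chance passes in about 1 in 20 groups, and 5 did. Cyp2c40 stood at 20.43 CPM in chow replicate 1 and at 3.725 to 5.985 CPM in the other chow libraries. Cyp2c69, its neighbour, stood at 9.208 CPM in the same library and at 0.9312 to 1.985 CPM in the others. Cyp2d12 stood at 0.2014 CPM there, against 0.05886 to 0.0755 CPM. In MASH OA, Cyp2c40 stood at 1.762 CPM in replicate 2 and at 0.1257 to 0.2805 CPM elsewhere, and Cyp2b9 at 2.946 CPM in replicate 3 and at 0 to 0.3978 CPM elsewhere. All of these genes were among those with few counts, and Cyp2c40 and Cyp2c69 share most of their transcript windows with other genes.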

How the results depend on the processing

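Over 26 alternatives the log2 fold changes of named members kept their side of the threshold in 2061 cases, passed it in 47 more and missed it in 199. Of the 2061 cases 1966 kept their direction and 95 changed sign with neither value past the threshold, 10 of these under library totals and 19 with groups from the tags. A value past the threshold in either fit changed sign in 0 cases. The cause of these moves was not tested, except that a minimum of 2-fold, fewer libraries or another grouping changes what is counted. In MASH against chow the 2 higher members became 5 under library totals, 4 without the libraries with disagreeing labels and 1 to 2 without 1 library. The 19 lower members became 10 with a minimum of 2-fold and 13 to 18 without 1 library. In MASH OAL against MASH the 0 higher members became 7 with DESeq2 and 4 with limma voom, and the 0 lower members 1 with DESeq2 and 1 in a fit of the compared groups alone. In MASH OAL against MASH OA the 13 higher members became 20 with limma voom, 8 under library totals, 8 with the compared groups alone, 6 without the libraries with disagreeing labels, 5 without those holding pancreatic transcripts, 3 with a minimum of 2-fold, 0 with groups from the tags, and 6 to 17 without 1 library. In MASH OAL against chow the 10 lower members became 6 with no count filter, 4 without the libraries with disagreeing labels, 3 without those holding pancreatic transcripts, 3 with a minimum of 2-fold, 0 with groups from the tags and 0 to 7 without 1 library. The 2 higher members there became 1 with groups from the tags, 1 without the libraries with disagreeing labels, 0 without those holding pancreatic transcripts and 0 to 3 without 1 library. The labels do not say that replicate numbers pair the libraries. With the replicate block 2 members were higher and 21 lower in MASH against chow, 15 were higher in MASH OAL against MASH OA, and 1 was higher and 11 lower in MASH OAL against chow. Depth limits the members with few counts, such as Cyp2d12, and groups of 3 and 4 libraries limit all others.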
